A study of Mus musculus with 72 samples.

Results

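Livers of 6 male WT mice collected at ZT2 were compared, 3 germ free (GF) and 3 specific pathogen-free (SPF), out of 72 livers in the whole series. ZT is zeitgeber time, counted in hours from lights on, so ZT2 falls early in the light phase, when mice rest. The 6 samples were chosen by their labels alone, as GF WT at ZT2 and SPF WT at ZT2. WT mice carried the Bmal1 fl/fl allele on a C57BL/6 background without cre, and LKO mice, which served only for comparison here, carried Bmal1 fl/fl together with Albumin-cre, a transgene driven by a hepatocyte promoter. GF mice were reared without microbes in isolators and SPF mice with their microbiota in the vivarium, all on autoclaved chow freely available, so microbial status and housing cannot be told apart. Adult mice were used, housed singly before collection, and each library came from a different liver. The comparison addresses what the gut microbiota changes in the hepatic transcriptome of mice with an intact liver clock in the morning.

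The liver receives microbial products through the portal vein, and bile acids that gut bacteria have modified return to it by the same route. In hepatocytes such signals act through nuclear receptors that set the levels of cytochrome P450 enzymes, transporters and enzymes of cholesterol and bile acid synthesis. The hepatic clock is a feedback loop in which the transcription factors BMAL1 (gene Arntl) and CLOCK drive their own repressors, the Per, Cry and Nr1d genes, and output factors such as Dbp and Tef, so that many hepatic transcripts rise and fall once a day.

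The values are counts of reads per gene, and the 6 libraries held 18341726 to 20237288 counts, against 17369927 to 22076113 over all 72. Counts are given here as CPM, counts per 1000000 after edgeR's TMM scaling. Of 13596 genes that passed edgeR's filter on low counts, hepatocyte markers such as Alb and Apoa1 were abundant in every library, with Alb, the serum albumin gene, taking 7.45% to 8.88% of the counts in SPF WT and 8.48% to 11.3% in GF WT. The 3 GF WT libraries had a count in fewer genes, 18294 to 18750 against 19836 to 19993 in SPF WT, and lower TMM factors, 0.822 to 0.921 against 1.01 to 1.06. The median log2 fold change was -0.27 over the 3399 genes with the lowest levels and 0.11 over the 3399 with the highest, a difference in library makeup that moves with microbial status, whose part in single results was not tested. Correlations of log2 CPM over all tested genes were 0.981 to 0.987 between SPF WT libraries, 0.972 to 0.983 between GF WT libraries and 0.965 to 0.976 between groups. SPF WT replicate 2 lay apart from the other libraries of its group in several clock genes and in Pck1, so results on the clock are also given without it.

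Of the 13596 genes tested, 1379 (10.1%) were called at an adjusted p under 0.05 by edgeR (quasi-likelihood test, p adjusted by Benjamini-Hochberg), 834 (6.13%) higher and 545 (4.01%) lower in GF WT. Changes were mostly modest, with a median size of 0.64 (log2) among called genes, and 335 reached a log2 size of 1, of which 130 were higher and 205 lower. CPM of the 3 GF and 3 SPF libraries did not overlap for 28.9% of all tested genes and for 1356 of the 1379 called ones. With 1 of the 6 libraries left out the count was 480 to 1416, namely 708, 989 and 480 without SPF WT replicate 1, 2 or 3, and 967, 1416 and 773 without GF WT replicate 1, 2 or 3. Fitted on the 6 libraries alone, without the LKO libraries of the same ZT to estimate the spread, 380 genes were called. The LKO comparison moved the other way, from 1213 genes to 1974 when fitted on its own 6 libraries. The WT count thus depends on a spread shared with the LKO groups, and why the counts moved in opposite directions was not tested. In LKO mice at ZT2, 1213 genes (8.92%) were called between GF and SPF, which came to 342 to 1055 with 1 LKO library left out and was lowest without SPF LKO replicate 1. Called in both genotypes were 495 genes, 35.9% of the WT list and 40.8% of the LKO list. All 495 moved the same way in both, 372 higher and 123 lower in GF mice.

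The lists of genes described next differed widely in how much of each was called, as the plot of gene lists shows. The median log2 fold change over all tested genes was -0.02, and list medians ranged from -0.35 for clock genes to 1.56 for cholesterol synthesis and uptake. Outside these, the lists with the most called members by count were those of amino acid, methyl group and drug metabolism. Their shares called were 47.6% (sulfur amino acid, one-carbon and NAD), 37.9% (amino acid catabolism), 33.3% (P450) and 32.7% (conjugation), against 10.1% of all genes. Shorter lists had shares in the same range, 42.9% of 7 tested mitochondrial genes and 40.9% of 22 secreted metabolic factors. Calls also varied with level. Of the 3399 genes with the highest levels 489 were called higher and 83 lower, and of the 3399 with the lowest 44 higher and 142 lower. List shares were not set against genes of like level, so the part of level in them was not tested.

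**Figure D1:**
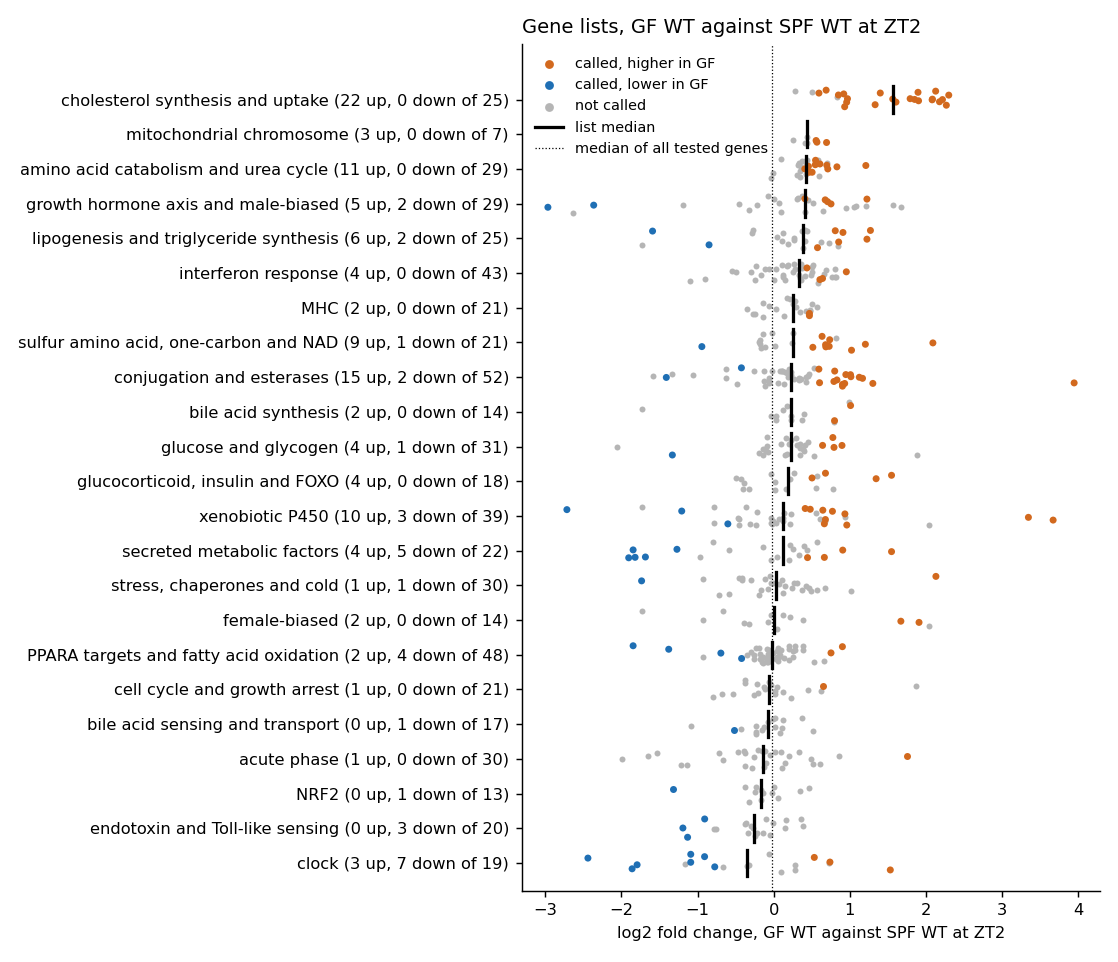
Log2 fold change of GF WT against SPF WT at ZT2 (x axis) for the tested members of 23 gene lists (y axis, with the called members of those tested), 3 libraries a group. Points are genes, colored where called, black bars are list medians and the dotted line is the median of all tested genes; cholesterol synthesis stands farthest to the right, with 22 of 25 members called higher.

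Enzymes of cholesterol synthesis were higher in GF WT. Of 25 genes of cholesterol synthesis and uptake, 22 were called, all higher, and all 25 had a positive log2 fold change. SPF WT libraries had 237, 219 and 168 CPM and GF WT libraries 798, 849 and 997 CPM for Hmgcs1, which makes the precursor of mevalonate (ENSMUSG00000093930, chromosome 13, 119690379 to 119708260 of GRCm38). The 2 groups lay far apart, a log2 fold change of 2.08 ± 0.20 with an adjusted p of 0.000152 by edgeR. The CPM values were 119.5, 125 and 99.8 in SPF WT and 631, 439 and 623 in GF WT for Msmo1, a sterol demethylase. Msmo1 rose by the most of the list, by 2.30 ± 0.23 (adjusted p = 0.000337, edgeR).

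Between these enzymes stood Idi1, Fdps, Fdft1 and Sqle, which build squalene and its epoxide from isoprene units. Levels came to 29.1, 28 and 15.3 CPM in SPF WT and 102, 115 and 111 CPM in GF WT for Sqle, so that every GF library exceeded every SPF library more than 3-fold. SPF WT libraries had 4.35, 3.76 and 2.73 CPM and GF WT libraries 20.5, 13.7 and 18.1 CPM for Idi1. Fdps had 3.57, 4.93 and 3.61 CPM in SPF WT and 11.4, 15.7 and 18.3 CPM in GF WT and shared 26.7% of its exonic bases with another gene, which makes its counts less certain. Their log2 fold changes were 2.18 ± 0.26, 2.27 ± 0.29 and 1.90 ± 0.21, in the same range as those of Mvd (2.22 ± 0.40), Nsdhl (2.08 ± 0.25), Cyp51 (2.13 ± 0.26) and Fdft1 (1.89 ± 0.20), each called with edgeR. Srebf2, which encodes the transcription factor that drives the pathway, rose less, by 0.69 ± 0.18 (adjusted p = 0.0323, edgeR), with overlapping groups. Acss2, which makes acetyl-CoA from acetate in the cytosol and is no member of the list, had 103, 149 and 89.1 CPM in SPF WT and 477, 474 and 531 CPM in GF WT (2.12 ± 0.20, adjusted p = 0.000152, edgeR). The list had 18 to 23 called members, all higher, when any one library was left out, and 19 when fitted on the 6 libraries alone.

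**Figure D2:**
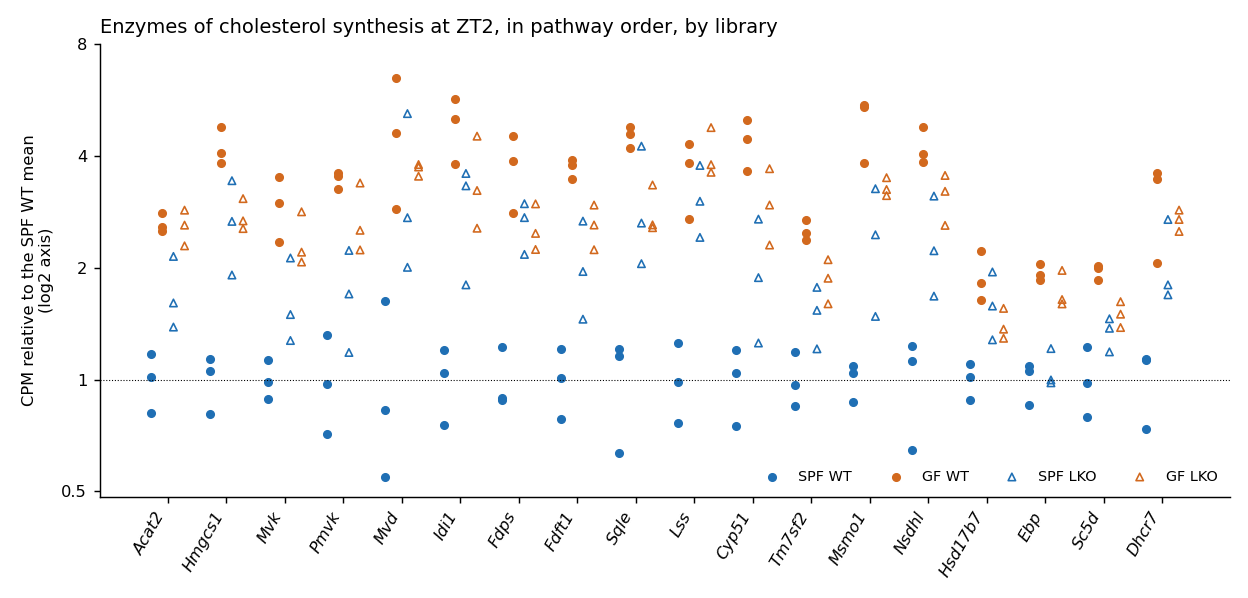
CPM of 18 enzymes of cholesterol synthesis in pathway order (x axis), each divided by its SPF WT mean (y axis, log2), at ZT2; points are libraries, 3 a group. GF WT circles stand above SPF WT circles for all 18 enzymes, while SPF LKO and GF LKO triangles lie close together for several enzymes, Hmgcs1, Fdps and Sqle among them.

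In LKO mice the same list had a median log2 fold change of 0.20 between GF and SPF, with 2 members called higher and none lower. The difference between the genotypes' effects was negative for all 25 members (median -1.12), and passed its own test for 2 of them. Hmgcs1 had 398, 713 and 554 CPM in SPF LKO and 638, 556 and 530.3 CPM in GF LKO, a log2 fold change of 0.05 ± 0.19, and the difference of the effects, LKO minus WT, was -2.03 ± 0.27 (adjusted p = 0.0394, edgeR). For Fdps it was -1.94 ± 0.28 (adjusted p = 0.0434, edgeR), with 8.76, 12 and 11 CPM in SPF LKO and 12, 9.98 and 9.04 CPM in GF LKO. SPF LKO values lay above all SPF WT values for both enzymes and overlapped those of GF LKO. In the 12 fits that each left out 1 library, the difference passed in 5 for Hmgcs1 and in 3 for Fdps, and neither passed without SPF WT replicate 3, SPF LKO replicate 3, GF WT replicate 2 or 3, or any one GF LKO library. At the other 5 ZT in WT mice the list's median log2 fold change was between 0.45 and 1.25, positive at each, and no member passed the test of a difference between ZT2 and the mean of the other ZT (lowest adjusted p = 0.246, edgeR).

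Hmgcs1 was the only one of the 17 list members (5.88%) with a promoter window in the RefSeq table to hold the sterol element TCACNCCAC. It was searched on both strands from 250 bases before to 50 bases after the annotated start. Of other lists, 3 of 38 P450 genes (7.89%) and 1 of 14 sulfur amino acid, one-carbon and NAD genes (7.14%) held it. Of all 32851 promoters 1.24% hold it, a share that counts windows, while the list figures count genes with any such window. Hmgcs1 was called between GF and SPF WT and passed the test between genotypes on all 12 libraries. Its promoter is shown because it holds the element, in capitals (GRCm38.p6, chr13:119690101-119690400, strand +).
Hmgcs1: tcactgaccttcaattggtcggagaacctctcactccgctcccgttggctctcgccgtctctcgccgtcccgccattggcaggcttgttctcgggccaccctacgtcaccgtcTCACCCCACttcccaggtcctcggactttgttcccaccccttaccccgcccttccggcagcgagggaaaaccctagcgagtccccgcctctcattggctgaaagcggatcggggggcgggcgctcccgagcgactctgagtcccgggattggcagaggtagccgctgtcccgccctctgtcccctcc
The element begins 137 bases before the start. A match of letters is a description of the sequence and does not say that a factor binds it.

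Clock genes differed between the groups at ZT2. Of 19 tested members of the clock list (20 listed; Ciart did not pass the filter), 10 were called, 3 higher (Npas2, Cry1, Nfil3) and 7 lower (Dbp, Per3, Tef, Nr1d1, Per2, Bhlhe40, Usp2) in GF WT, with a list median of -0.35; Usp2 alone of the 10 had overlapping groups. The CPM values were 6.59, 3.05 and 6.6 in SPF WT and 0.996, 1.08 and 0.889 in GF WT for Dbp, a PAR bZIP output factor of the clock (ENSMUSG00000059824, chromosome 7, 45705088 to 45710203 of GRCm38). Groups did not overlap, and Dbp was lower in GF WT by 2.44 ± 0.36 (log2) (adjusted p = 0.00189, edgeR), with 18.0% of its exonic bases shared with another gene. Levels came to 5.52, 2.77 and 5.1 CPM in SPF WT and 0.929, 1.52 and 1.36 CPM in GF WT for Per3, a member of the Period family of repressors (-1.79 ± 0.28, adjusted p = 0.00358, edgeR). SPF WT libraries had 111, 61.6 and 104 CPM and GF WT libraries 47.7, 42.5 and 39.9 CPM for Tef, a relative of Dbp (-1.09 ± 0.18, adjusted p = 0.00401, edgeR). Again no GF library reached the lowest SPF library.

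Nr1d1 encodes REV-ERBα, which represses Arntl, and had 49.2, 46.2 and 50.3 CPM in SPF WT and 16.7, 29.2 and 22.4 CPM in GF WT (-1.09 ± 0.17, adjusted p = 0.00327, edgeR). Arntl itself had 11.1, 28 and 15.7 CPM in SPF WT and 30.3, 26.8 and 33.6 CPM in GF WT. The highest SPF value, that of replicate 2, lay within the GF range, and the difference did not pass (0.73 ± 0.25, adjusted p = 0.0803, edgeR). Npas2, a partner of BMAL1 related to CLOCK, had 1.07, 6.95 and 1.6 CPM in SPF WT and 7.83, 9.91 and 10.3 CPM in GF WT (1.53 ± 0.45, adjusted p = 0.0471, edgeR), a call that DESeq2 and 7 other settings did not keep. Cry1, a repressor that peaks late, was higher by 0.74 ± 0.21 (adjusted p = 0.039), and Nfil3, which opposes Dbp at its sites, by 0.53 ± 0.15 (adjusted p = 0.0444), both by edgeR. Clock, Cry2, Rora and Per1 had log2 fold changes of -0.07, 0.09, 0.28 and -0.32, with adjusted p from 0.308 to 0.809 by edgeR.

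Replicate 2 of SPF WT stood nearer to the GF libraries than the other SPF libraries did in Arntl, Npas2, Dbp, Usp2 and Tef, and its Per1 level of 2.11 CPM lay below all 5 others (8.72 to 25.8). Without it, 12 clock genes were called, 3 higher and 9 lower. Without any one of the other 5 libraries 4 to 7 were called, at least 4 of them lower, and the fewest were called without SPF WT replicate 1, namely 4 lower and 0 higher. The fit on the 6 libraries alone called 4 clock genes, all lower, and the fit on all 72 libraries called 6, all lower, so the 3 higher calls were lost in both. Dbp, Per3 and Tef were called in every alternative run.

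The differences were set beside the daily course of SPF WT mice, taken from libraries of other ZT. By sign, 17 of the 19 genes had a difference at ZT2 between GF and SPF WT opposite in sign to the change in SPF WT from ZT22 to ZT6, including all 10 called ones. Dbp, for example, had means of 0.716, 5.09 and 51.8 CPM in SPF WT at ZT22, ZT2 and ZT6, and of 0.858, 0.926 and 37.6 CPM in GF WT. Npas2 had 8.86, 3.03 and 0.196 CPM in SPF WT and 11.1, 8.76 and 0.209 CPM in GF WT. At ZT2 the GF WT means thus lay nearer to those of ZT22 than the SPF WT means did for both genes. The comparison of signs was made for clock genes only, so no share over all tested genes stands beside it. Members of the same feedback loop are not independent of each other, and the 17 signs are no separate observations.

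**Figure D3:**
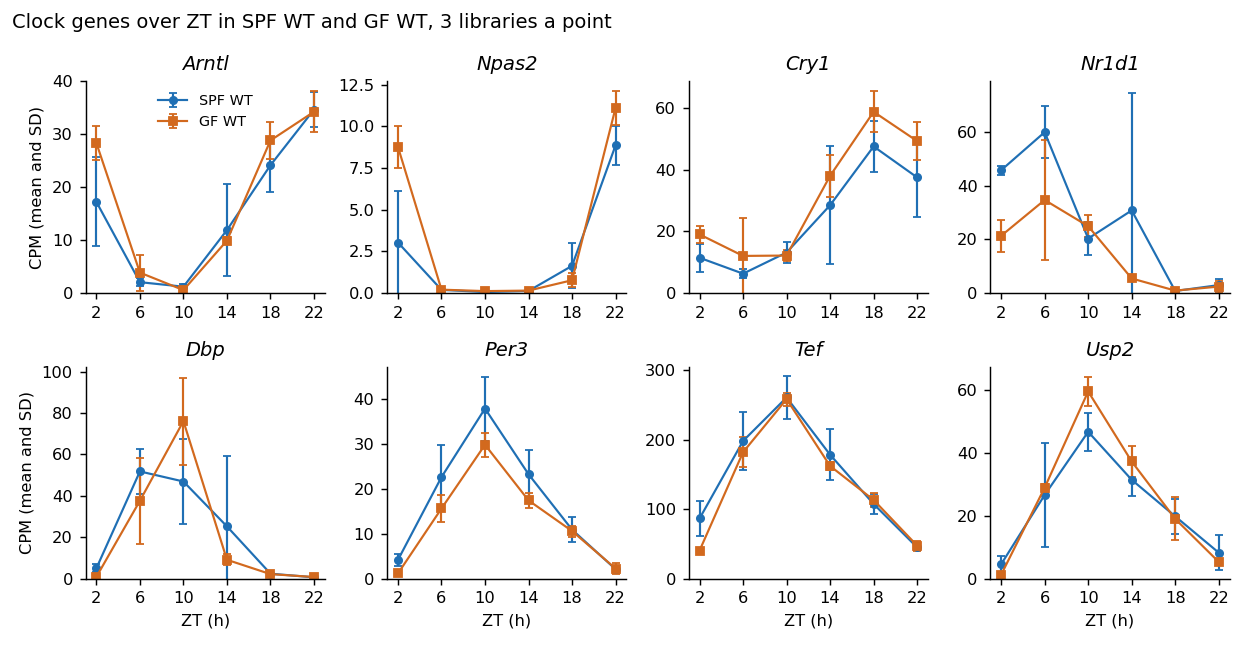
Mean CPM (y axis) of 8 clock genes in SPF WT (circles) and GF WT (squares) over ZT (x axis, hours), 3 libraries a point, bars are SD cut at 0. At ZT2 Arntl, Npas2 and Cry1 means are higher and Nr1d1, Dbp, Per3, Tef and Usp2 means lower in GF WT; the wide bars at ZT14 (SPF WT) and ZT6 (GF WT) come from 1 library each that stands apart.

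Tef passed the test of a difference between ZT2 and the mean of the other 5 ZT, with -1.07 ± 0.19 (adjusted p = 0.0152, edgeR), and its log2 fold changes at the other ZT lay between -0.14 and 0.08. It did not pass without any one of SPF WT replicates 1 and 3 and GF WT replicates 2 and 3 (adjusted p from 0.086 to 0.225, edgeR). Of the WT libraries of other ZT, 2 stood apart from their groups in Dbp, Nr1d1 and Arntl. Replicate 3 of SPF WT at ZT14 had 64.5 CPM of Dbp against 7.31 and 4.06 in the other two, and replicate 3 of GF WT at ZT6 had 15.5 against 56.4 and 41.1. In the same order, Nr1d1 was at 81.2 against 8.17 and 2.96 CPM and at 8.85 against 47.9 and 47.1 CPM, and Arntl at 2.02 against 15.1 and 18.6 CPM and at 7.76 against 1.53 and 2.32 CPM. Both libraries were kept in the daily courses and in the test between ZT, and whether their labels or collection times were exchanged was not tested. Without both, a choice made after seeing the data, 7 genes passed that test. Among them were Tef (-1.12, adjusted p = 0.00789) and Dbp (-2.73, adjusted p = 0.0153, edgeR). In LKO mice at ZT2, where the loop lacks BMAL1 in hepatocytes, 0 clock genes were called higher and 2 lower between GF and SPF, and no clock gene passed the test of a difference between genotypes (lowest adjusted p = 0.141, edgeR).

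Among promoters of the clock list, 5 of 17 genes with a window held the E-box CACGTG, the site of BMAL1 and its partners (7.15% of all promoters), and 1 of 17 the D-box TTATGTAA, the site of Dbp, Tef and Nfil3 (0.938% of all promoters). The E-box was also held by 4 of 17 genes of the cholesterol list (23.5%). The windows of 3 called clock genes are shown because they hold these sites, in capitals, Tef and Cry1 with an E-box and Per3 with 2 D-boxes.
Tef: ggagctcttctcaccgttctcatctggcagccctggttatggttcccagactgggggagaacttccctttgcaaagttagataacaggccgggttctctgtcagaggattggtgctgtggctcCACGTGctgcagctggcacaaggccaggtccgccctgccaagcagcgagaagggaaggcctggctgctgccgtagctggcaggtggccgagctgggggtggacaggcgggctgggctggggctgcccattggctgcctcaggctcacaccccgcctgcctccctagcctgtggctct
Cry1: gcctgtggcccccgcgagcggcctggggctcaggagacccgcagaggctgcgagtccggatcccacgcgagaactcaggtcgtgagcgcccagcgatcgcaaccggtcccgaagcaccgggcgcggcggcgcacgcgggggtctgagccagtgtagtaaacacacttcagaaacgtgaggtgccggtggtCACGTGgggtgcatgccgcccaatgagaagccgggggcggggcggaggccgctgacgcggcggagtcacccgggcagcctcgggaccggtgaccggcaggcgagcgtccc
Per3: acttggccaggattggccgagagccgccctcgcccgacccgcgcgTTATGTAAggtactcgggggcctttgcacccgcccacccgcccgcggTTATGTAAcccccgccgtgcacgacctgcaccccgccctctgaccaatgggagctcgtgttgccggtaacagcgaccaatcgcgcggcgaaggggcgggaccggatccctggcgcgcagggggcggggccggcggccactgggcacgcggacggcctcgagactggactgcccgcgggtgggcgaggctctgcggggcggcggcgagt
These windows are chr15:81802423-81802722, strand + for the first of 2 Tef starts, chr10:85185005-85185304, strand - for Cry1 and chr4:151044616-151044915, strand - for Per3, in GRCm38.p6, from RefSeq. Tef and Per3 were lower and Cry1 was higher in GF WT.

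Of 21 genes of sulfur amino acid, one-carbon and NAD metabolism, 9 were called higher in GF WT and 1 lower. The log2 fold change was positive for 13 and negative for 8, with a list median of 0.26. The CPM values were 318, 401 and 371 in SPF WT and 1736, 1295 and 1605 in GF WT for Bhmt, which remethylates homocysteine with betaine (ENSMUSG00000074768, chromosome 13, 93616675 to 93637961 of GRCm38). Bhmt had the smallest adjusted p of all tested genes, 5.85e-06 by edgeR, with a log2 fold change of 2.09 ± 0.13 or 4.26-fold. Gnmt, which consumes the methyl donor S-adenosylmethionine, had 1029, 1273 and 1198 CPM in SPF WT and 2582, 2188 and 2333 CPM in GF WT (1.02 ± 0.12, adjusted p = 0.00064, edgeR). Cth, which makes cysteine from cystathionine, had 414, 425 and 496 CPM in SPF WT and 1196, 747 and 1131 CPM in GF WT (1.2 ± 0.16, adjusted p = 0.00122, edgeR). Groups were separate for all 3 genes.

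Ahcy, Bhmt2, Pemt, Cdo1, Gamt and Mat1a, which make or use methyl groups or cysteine, were also called higher, with log2 fold changes from 0.51 to 0.73. The lone lower member was Csad (-0.94 ± 0.26, adjusted p = 0.039, edgeR), which leads from cysteine to taurine, and with 1 library left out the list had a lower call only without GF WT replicate 2. Left out in turn, single libraries left 7 to 10 members called. In LKO mice 8 members were called higher and 1 lower, Bhmt with 1.25 ± 0.13 (adjusted p = 0.000824, edgeR), so the rise of Bhmt was present in both genotypes, and the difference between them did not pass (-0.84 ± 0.18, adjusted p = 0.144, edgeR).

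Amino acid catabolism and the urea cycle showed smaller changes in 1 direction. Of 29 listed genes 11 were called (37.9%, against 10.1% of all genes), all higher, and the list median was 0.42. The 8 hepatocyte markers had a median of 0.53 in the same comparison, with 3 called higher. A rise of this size was thus not particular to the list. Cps1, the entry enzyme of the urea cycle, had 3327, 3551 and 3302 CPM in SPF WT and 5954, 4917 and 5773 CPM in GF WT (0.71 ± 0.12, adjusted p = 0.00423, edgeR). Arg1, its last enzyme, had 1137, 1024 and 1151 CPM in SPF WT and 2147, 1774 and 1963 CPM in GF WT (0.83 ± 0.11, adjusted p = 0.00105, edgeR), and Ass1 and Asl between them rose by 0.70 ± 0.15 and 0.50 ± 0.11. The largest change was that of Got1, the cytosolic aspartate aminotransferase, with 218, 155 and 231 CPM in SPF WT and 469.7, 496 and 431 CPM in GF WT (1.21 ± 0.15, adjusted p = 0.000941, edgeR). Agxt, Prodh, Hpd, Aass and the amino acid transporter Slc38a4 were also called higher, with log2 fold changes from 0.41 to 0.61. Without SPF WT replicate 3 only 5 members were called, and 7 without GF WT replicate 3, and on the 6 libraries alone 4.

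Drug-metabolizing enzymes changed in both directions. Cyp3a11, the chief hepatic Cyp3a enzyme of mice and a target of the xenobiotic receptor PXR (ENSMUSG00000056035, chromosome 5, 145854426 to 145879964 of GRCm38), fell. Levels came to 4859, 5635 and 4853 CPM in SPF WT and 1137, 538 and 661 CPM in GF WT for this gene, so the highest GF value lay far under the lowest SPF value. The fall was -2.72 ± 0.25 on the log2 scale, or 6.57-fold (adjusted p = 0.000152, edgeR), and in LKO mice -4.52 ± 0.27 (adjusted p = 2.28e-06, edgeR). Its neighbors in the family Cyp3a59 (-1.21 ± 0.20, adjusted p = 0.0043) and Cyp3a25 (-0.60 ± 0.15, adjusted p = 0.0261) also fell. Reads that aligned to several places were not counted, so values of near-identical family members are uncertain.

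Of the 39 tested P450 genes and regulators 10 were called higher, most of them in the Cyp2c family, for a list median of 0.13. SPF WT libraries had 0.586, 0.47 and 0.515 CPM and GF WT libraries 6.9, 4.82 and 4.45 CPM for Cyp2c69 (3.34 ± 0.41, adjusted p = 0.000817, edgeR), and 0.537, 1.03 and 0.515 CPM in SPF WT and 14.7, 6.39 and 6.11 CPM in GF WT for Cyp2c40 (3.67 ± 0.60, adjusted p = 0.00401, edgeR). Both were near the floor in SPF WT, with 10 to 12 counts of Cyp2c69 and 10 to 22 counts of Cyp2c40 a library. Cyp2c68, Cyp2c67, Cyp2c54 and Cyp2c50 rose by 0.96, 0.93, 0.77 and 0.66, and Cyp1a2, Cyp2a12, Cyp2j5 and Cyp2j6 by 0.64, 0.48, 0.41 and 0.68 (all called, edgeR). The list had 13 calls, against 6 without SPF WT replicate 3 and 8 without GF WT replicate 3.

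Conjugating enzymes and esterases had 15 of 52 tested members called higher and 2 lower. Glutathione S-transferases of the mu class had the smallest p, Gstm6 with 90.2, 99.3 and 69.1 CPM in SPF WT and 206, 179 and 179 CPM in GF WT (1.12 ± 0.13, adjusted p = 0.000644, edgeR), Gstm7 (1.01 ± 0.13) and Gstm2 (1.30 ± 0.22). The phenol sulfotransferase Sult1a1 had 253, 217 and 201 CPM in SPF WT and 574, 478 and 453 CPM in GF WT (1.17 ± 0.17, adjusted p = 0.00171, edgeR), and the carboxylesterase Ces1g rose by 0.80 ± 0.14. The estrogen sulfotransferase Sult1e1, named after its values were seen, had 7, 2 and 8 counts in SPF WT and 59, 118 and 46 in GF WT (3.94 ± 0.89, adjusted p = 0.0164, edgeR). The called lower members were Ugt1a6a (-1.41 ± 0.31), a glucuronosyltransferase, and Ces2a (-0.42 ± 0.12).

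**Figure D4:**
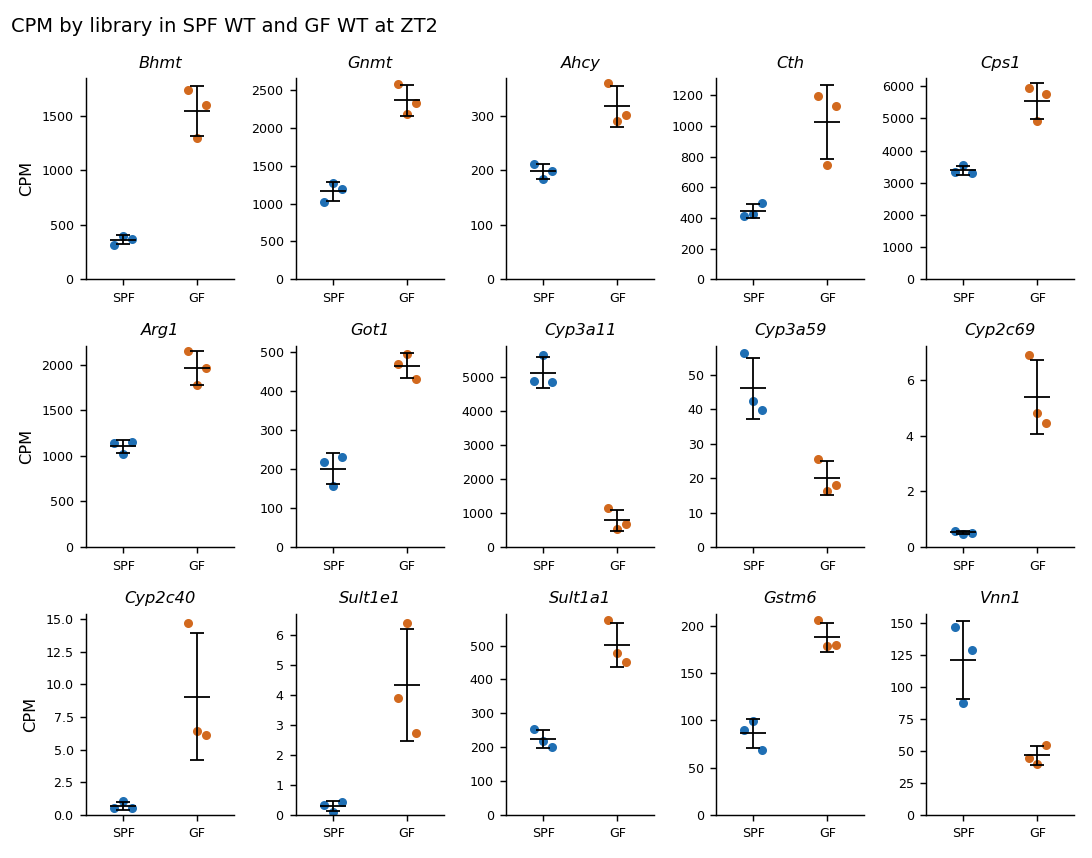
CPM (y axis, from 0) of 15 genes by library in SPF WT and GF WT at ZT2 (x axis), 3 points a group; horizontal bars are means and whiskers SD. Cyp3a11, Cyp3a59 and Vnn1 are lower and the other 12 genes higher in GF WT. The 2 groups do not overlap in any of the 15 panels, which show called genes only. Of all called genes 98.3% had groups that did not overlap, against 28.9% of all tested genes.

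Of 14 tested genes of bile acid synthesis 2 (14.3%, against 10.1% of all genes) were called, both higher, Cyp2c70 (1.01 ± 0.17, adjusted p = 0.00526, edgeR), which makes the muricholic acids of mice, and Akr1d1 (0.80 ± 0.14, adjusted p = 0.00649), a steroid 5β-reductase. Cyp7a1, the rate-limiting enzyme, had 29.8, 25.1 and 59.5 CPM in SPF WT and 35.8, 79.2 and 112 CPM in GF WT (0.99 ± 0.40, adjusted p = 0.127, edgeR) and was named after its values were seen. The groups overlapped. Of 17 tested genes of bile acid sensing and transport 1 (5.88%) was called lower, Abcb4, which exports phospholipid into bile (-0.53 ± 0.11, adjusted p = 0.0136, edgeR). The synthesis list had 5 calls without GF WT replicate 1, and the transport list 0 without SPF WT replicate 3 and 4 without GF WT replicate 2.

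Lipid and glucose genes were called in part. Of 25 tested genes of lipogenesis 6 were called higher and 2 lower, a share of 32% against 10.1% of all genes, with a list median of 0.38. Elovl3, a fatty acid elongase with a male bias, had 521, 661 and 800.0 CPM in SPF WT and 1816, 1406 and 1407 CPM in GF WT (1.22 ± 0.18, adjusted p = 0.00236, edgeR). Thrsp, Elovl5, Acly, Acacb and Insig2 rose by 0.85, 0.81, 0.91, 1.27 and 0.57, while Mlxipl, which encodes the carbohydrate sensor ChREBP, and Cidec, a lipid droplet protein, fell by 0.85 and 1.59. This list was sensitive to single libraries, with 2 calls without SPF WT replicate 3, 4 without SPF WT replicate 1, 5 without GF WT replicate 3 and 12 without SPF WT replicate 2.

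Of 48 genes of fatty acid oxidation and PPARA targets, 2 were called higher and 4 lower (median -0.02), a share of 12.5% against 10.1% of all genes. Vnn1, a pantetheinase and sensitive PPARA target, had 147, 87.9 and 129 CPM in SPF WT and 44.9, 40.2 and 55 CPM in GF WT (-1.38 ± 0.27, adjusted p = 0.00926, edgeR). Fgf21, a fasting hormone of the liver, was lower by 1.85 ± 0.50 (log2) (adjusted p = 0.0339), and Ppara, the receptor itself, by 0.69 ± 0.20 (log2) (adjusted p = 0.0437) with overlapping groups, both by edgeR and neither kept without SPF WT replicate 1 or 3. The list had 2 calls without any one of SPF WT replicates 1 and 3 and GF WT replicates 1 and 3. Cyp4a12a and Cyp4a12b, fatty acid hydroxylases with a male bias, were higher by 0.75 ± 0.21 and 0.90 ± 0.17. Cpt1a, which admits fatty acids to mitochondria, had 490.0, 293 and 425 CPM in SPF WT and 323, 357 and 344 CPM in GF WT (-0.24 ± 0.16, adjusted p = 0.366, edgeR), with overlapping groups. Aldh3a2, a fatty aldehyde dehydrogenase, and Fabp1, the liver fatty acid binding protein, had log2 fold changes of -0.19 ± 0.14 (adjusted p = 0.393) and 0.28 ± 0.19 (adjusted p = 0.361, edgeR).

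Gluconeogenesis and glycolysis had 4 of 31 genes called higher (Pgk1, Mdh1, Pfkfb1, G6pc) and 1 lower, a share of 16.1% against 10.1% of all genes. The lower one was Pck2, the mitochondrial phosphoenolpyruvate carboxykinase, with 2.54, 4.13 and 3.3 CPM in SPF WT and 1.06, 1.73 and 1.13 CPM in GF WT (-1.33 ± 0.30, adjusted p = 0.0166, edgeR), whose adjusted p lay between 0.0502 and 0.0612 without SPF WT replicate 2 or 3, without GF WT replicate 1 or 3 and on the 6 libraries alone. Pck1, the cytosolic enzyme and a rate-limiting step of gluconeogenesis, had 3478, 1049 and 2726 CPM in SPF WT and 3413, 3952 and 3076 CPM in GF WT. Replicate 2 of SPF WT was again the one apart, and the difference did not pass (0.53 ± 0.32, adjusted p = 0.308, edgeR). G6pc, which releases free glucose, was higher by 0.78 ± 0.20 (adjusted p = 0.0276), Fbp1 had 0.09 ± 0.12 (adjusted p = 0.658) and Eno1 0.35 ± 0.16 (adjusted p = 0.166), by edgeR. Without SPF WT replicate 3, GF WT replicate 1 or GF WT replicate 3 the list had 3 calls.

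Of the growth hormone axis and male-biased genes 5 of 29 tested were called higher and 2 lower, a share of 24.1% against 10.1% of all genes. Onecut1, a hepatic transcription factor named after its values were seen, had the lowest log2 fold change of the list (-2.97 ± 0.87, adjusted p = 0.0464, edgeR). Socs2, a feedback inhibitor induced by growth hormone, had 7.57, 24.7 and 19.9 CPM in SPF WT and 2.26, 4.23 and 3.56 CPM in GF WT (-2.36 ± 0.70, adjusted p = 0.0469, edgeR), a call lost without any one of SPF WT replicates 2 and 3 and GF WT replicates 1, 2 and 3. Igf1 was higher by 0.41 ± 0.11 (adjusted p = 0.0351), and Hsd3b5, a male-specific steroid dehydrogenase, by 0.68 ± 0.17 (adjusted p = 0.0281, edgeR). This list had 1 call without GF WT replicate 1 or 3, 2 without SPF WT replicate 2 and 3 without SPF WT replicate 3. Of 14 tested female-biased genes 2 (14.3%, against 10.1% of all genes) were called, both higher. These were Cyp17a1 (1.91 ± 0.28), a steroid hydroxylase, and Atp6v0d2 (1.67 ± 0.21), a proton pump subunit. The median of that list was 0.004, with 7 members positive and 7 negative.

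Secreted metabolic factors had 4 of 22 members called higher and 5 lower. Tsku, a hepatokine, had 26.5, 40.3 and 40.8 CPM in SPF WT and 9.63, 10 and 9.07 CPM in GF WT (-1.90 ± 0.25, adjusted p = 0.001, edgeR). The activin subunits Inhba and Inhbe were lower by 1.82 ± 0.46 (log2) (adjusted p = 0.0265) and 1.27 ± 0.24 (log2) (adjusted p = 0.00726), and Apoa4, which shares 69.8% of its exonic bases with another gene, by 1.69 ± 0.22 (log2) (adjusted p = 0.00105, edgeR). Igfbp1, a binding protein for IGF1 that insulin lowers, had 132, 66.2 and 131 CPM in SPF WT and 322, 409 and 231 CPM in GF WT (1.55 ± 0.30, adjusted p = 0.00905, edgeR), and the insulin receptor substrate Irs2 rose by 1.34 ± 0.29. With Sesn1 and Sesn3 these made 4 of 18 genes called in the list of glucocorticoid, insulin and FOXO genes, all higher, a share of 22.2% against 10.1% of all genes.

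Of 20 tested genes of endotoxin and Toll-like sensing 3 (15%, against 10.1% of all genes) were called, all lower in GF WT. Cd14, the coreceptor for lipopolysaccharide, had 2.78, 2.68 and 2.47 CPM in SPF WT and 1.46, 1.52 and 1.25 CPM in GF WT (-0.91 ± 0.20, adjusted p = 0.0143, edgeR). Nfkbiz was lower by 1.13 ± 0.23 (log2) (adjusted p = 0.0118) and Irak3, a brake on Toll-like signaling, by 1.19 ± 0.36 (log2) (adjusted p = 0.049, edgeR), the latter a call kept by no alternative except scaling without the most abundant genes. Without GF WT replicate 3 the list had 1 call. Of 43 interferon response genes 4 were called, all higher (Usp18, Ifi27, Gbp3, Ifih1, from 0.44 to 0.95), and of 21 MHC genes 2, B2m and H2-T23, each at 0.47. Of 30 acute phase genes 1 was called, Hamp2, a paralog of the hepcidin gene Hamp (1.76 ± 0.40, adjusted p = 0.0176, edgeR). Hamp itself was tested and not called. The shares called in these 3 lists were 9.30%, 9.52% and 3.33%. With 1 library left out the interferon list had 1 call without SPF WT replicate 3 and up to 8 without GF WT replicate 2, the MHC list 0 to 3, lowest without SPF WT replicate 3, and the acute phase list 1 to 5, highest without SPF WT replicate 1.

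Markers of other cells were examined in the same libraries. In bulk liver, fewer cells of a type and less RNA per cell cannot be told apart. Neutrophil markers were lower in GF WT, with summed levels of 6.20 to 20.6 CPM in SPF WT and 1.78 to 3.52 CPM in GF WT, and 3 of 4 tested markers (7 listed) called. Their median log2 fold change was -2.37 in WT and -0.40 in LKO at ZT2, with 0 called in LKO. At the other ZT in WT the median ran from -2.62 at ZT6 to 0.23 at ZT10. S100a9, a calcium-binding alarmin of neutrophils, had 8.64, 2.58 and 3.3 CPM in SPF WT and 0.797, 1.25 and 0.474 CPM in GF WT (-2.51 ± 0.58, adjusted p = 0.0175, edgeR), and Csf3r, the G-CSF receptor, was lower by 2.23 ± 0.39 (log2) (adjusted p = 0.00561). S100a8 was lower by 2.05 ± 0.54 (log2) (adjusted p = 0.0317, edgeR). Without SPF WT replicate 1 or GF WT replicate 3 only 1 marker was called. The part of these and the other marker levels in the results on other genes was not tested.

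Igha, the constant region of IgA, had 1.66, 1.55 and 2.32 CPM in SPF WT and 0.929, 0.217 and 0 CPM in GF WT (-2.32 ± 0.66, adjusted p = 0.0413, edgeR), resting on 0 to 45 counts a library, and the other 8 tested markers of B and plasma cells were not called. Marco, a scavenger receptor of Kupffer cells, was called lower (-2.29 ± 0.63, adjusted p = 0.0366) with overlapping groups, and not without SPF WT replicate 2, which had 20.3 CPM against 6.54 and 1.86, nor without any one GF WT library. The summed Kupffer cell level was 362 to 496 CPM in SPF WT and 337 to 412 CPM in GF WT. Hba-a1 and Hba-a2, hemoglobin chains of red cells, were lower by 1.22 ± 0.33 (log2) and 1.30 ± 0.34 (log2), and Stab1, a scavenger receptor of sinusoidal endothelium, by 0.68 ± 0.18 (log2) (all called, edgeR). The erythroid calls were lost without SPF WT replicate 3, GF WT replicate 2 or GF WT replicate 3, that of Stab1 without SPF WT replicate 1 or 3 or GF WT replicate 1 or 3, and that of Igha without each library except GF WT replicate 1. Summed hepatocyte markers were 91726 to 107050 CPM in SPF WT and 123990 to 176760 CPM in GF WT, with 3 of 8 called higher (Apoa1, Apoa2, Serpina1a), and 0 called without SPF WT replicate 3. Summed levels of T and NK cell, sinusoidal endothelial, and B and plasma cell markers overlapped between groups, as did those of stellate cells and fibroblasts. Cholangiocyte markers summed to 69.8 to 89.3 CPM in SPF WT and 27.6 to 59.5 CPM in GF WT with no member called (smallest adjusted p = 0.127, for Spp1, edgeR). Cela1 made up nearly all of the acinar list's signal (1.12 ± 0.15, adjusted p = 0.00105), with 7 of its 10 members, Try4 and Prss2 among them, at 0 counts in all 6 libraries, and Car3 nearly all of that of the adipocyte list, with Plin1, Lep and Retn at 0.

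Some of the largest changes fell outside these lists. The CPM values were 0, 0.141 and 0.361 in SPF WT and 37.9, 129 and 77.5 in GF WT for Moxd1, which encodes a monooxygenase related to dopamine β-hydroxylase (ENSMUSG00000020000, chromosome 10, 24223517 to 24302790 of GRCm38). These were 0, 3 and 7 counts in SPF WT against 571, 2387 and 1307 in GF WT, so its fitted log2 fold change of 8.91 ± 1.25 (adjusted p = 0.00143, edgeR) depends on few SPF reads. It was higher in GF than in SPF WT at the other ZT too, by 5.52 to 7.32 at ZT6, ZT10, ZT18 and ZT22 and by 0.31 at ZT14, and in LKO by 3.78 ± 0.77 (adjusted p = 0.0112, edgeR). Gpx6, of the glutathione peroxidase family, Asns, which makes asparagine, and Tspyl4 rose by 3.10 ± 0.45, 2.13 ± 0.42 and 2.57 ± 0.36 (all called, edgeR).

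Several of the lowest log2 fold changes beside that of Cyp3a11 belonged to transcripts without a protein. Gm15611 was lower by 2.69 ± 0.53 (log2), Gm16348 by 2.44 ± 0.51 (log2), Gm15675 by 2.26 ± 0.50 (log2), Gm35696 by 2.22 ± 0.33 (log2) and the pseudogene Serpina4-ps1 by 2.36 ± 0.52 (log2). Of the coding genes, the mitochondrial carrier Slc25a30 had 48, 188 and 177 CPM in SPF WT and 24.7, 26.6 and 32.3 CPM in GF WT (-2.30 ± 0.43, adjusted p = 0.0075, edgeR). The imprinted gene Peg3, the cell cycle factor E2f8, the kinase Rps6ka1 and the GTPase-activating protein Arhgap4 were lower by 1.89, 1.87, 1.8 and 1.91. Noncoding genes of the lncRNA classes took 0.509% to 0.598% of the counts in SPF WT and 0.379% to 0.502% in GF WT. Of 967 tested, 33 were called higher and 40 lower, a smaller share than the 10.1% of all genes. Their median log2 fold change was -0.26, close to the -0.27 of the 3399 genes with the lowest levels.

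Lists with few calls were those of stress and chaperone genes, with Asns higher and Atf3 lower (-1.74 ± 0.43, adjusted p = 0.0253, edgeR) of 30, of NRF2 targets, with Osgin1 lower (-1.32 ± 0.38) of 13, and of the cell cycle, with Btg1 higher (0.65 ± 0.14) of 21. In that order the shares called were 6.67%, 7.69% and 4.76%, against 10.1% of all genes. Atf3 was not called without SPF WT replicate 2 or any one GF WT library, Osgin1 was called with 1 library left out only without SPF WT replicate 3, and Btg1 was not called without that library. Of 13 mitochondrial genes 7 were tested and 3 called higher, mt-Nd4, mt-Cytb and mt-Nd6 (0.56 to 0.69), beside a mitochondrial share of all counts of 6.50% to 6.82% in SPF WT and 5.97% to 8.41% in GF WT. Without GF WT replicate 2, 5 were called, and 0 without any other single library.

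Tests of a difference found few genes. Between genotypes 3 of 13596 genes (0.0221%) passed, Hmgcs1, Fdps and Lrtm1, and 1117 had an unadjusted p under 0.05. Lrtm1, a membrane protein with leucine-rich repeats, had 6.2, 3.38 and 4.54 CPM in SPF WT and 34.6, 43.2 and 37.7 CPM in GF WT. In LKO mice the values were 61.4, 35.3 and 43.7 CPM in SPF LKO and 52, 89.3 and 64.8 CPM in GF LKO, above all SPF WT values in both groups. Its effect was 3.03 ± 0.27 in WT and 0.55 ± 0.23 in LKO, and the difference -2.48 ± 0.35 (adjusted p = 0.0394, edgeR). All 3 genes had the larger effect in WT. DESeq2 called 71 genes in this test, and without 1 library 0 to 20 were called by edgeR, 20 without SPF WT replicate 2, 14 without SPF LKO replicate 1, 6 without GF WT replicate 1, 1 without GF LKO replicate 2 and 0 without SPF WT replicate 3, SPF LKO replicate 3, GF WT replicate 2 or 3, or GF LKO replicate 1 or 3.

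Between ZT2 and the mean of the other ZT in WT, 3 of 14090 genes (0.0213%) passed, Grk5, Loxl4 and Tef, and 952 had an unadjusted p under 0.05. Grk5, a kinase of G protein-coupled receptors, had 6.84, 10.6 and 7.99 CPM in SPF WT and 23.4, 27.6 and 36.3 CPM in GF WT at ZT2 (1.78 ± 0.21), and its log2 fold changes at the other ZT lay between -0.61 and 0.78 for a difference of 1.75 ± 0.26 (adjusted p = 0.00214, edgeR). Loxl4, which crosslinks collagen and elastin, had 1.9, 1.93 and 1.75 CPM in SPF WT and 5.78, 12.7 and 12.3 CPM in GF WT (2.47 ± 0.32). Its log2 fold changes lay between -0.42 and 1.17 at the other ZT for a difference of 2.25 ± 0.37 (adjusted p = 0.00994, edgeR). Grk5 passed in every alternative of this test. It was the lone gene to pass without SPF WT replicate 1, SPF WT replicate 3, GF WT replicate 2 or GF WT replicate 3, while 6 genes passed without GF WT replicate 1.

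Side by side, Bhmt was higher in GF WT at every ZT, by 0.79 to 1.06 at the other ZT against 2.08 at ZT2 in the same fit of 36 libraries, and Cyp3a11 lower at every ZT, by 0.93 at ZT6 and 2.47 to 3.27 at the remaining ones. The log2 fold change of Vnn1 (-1.38 at ZT2) lay between -0.49 and 0.23 elsewhere, and that of Igfbp1 (1.55) between -0.33 and 2.40. None of these 4 passed the test of a difference between ZT (adjusted p from 0.225 to 0.982, edgeR).

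**Figure D5:**
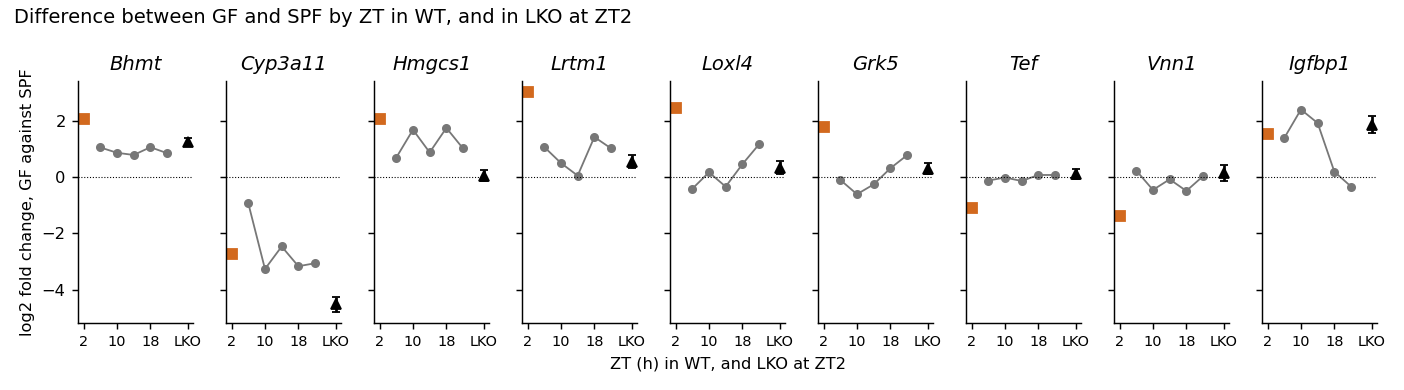
Log2 fold change of GF against SPF (y axis) of 9 genes by ZT (x axis, hours) in WT, with ZT2 as a square and other ZT as circles, all from the fit of 36 WT libraries, and in LKO at ZT2 as a triangle with its SE from the fit of 12 libraries; 3 libraries a group. Tef, Loxl4 and Grk5 stand apart at ZT2, Cyp3a11 is below 0 throughout and Hmgcs1 is near 0 in LKO.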

How the data were processed

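RNA was extracted from frozen livers, and stranded mRNA libraries were sequenced as single reads. Per the labels, the file headers and the study's methods, the authors aligned reads to mm10 with STAR 2.6.1b and deposited whole-number counts per gene of Ensembl 97, made with featureCounts 2.0.0 without use of strand. Reads with more than 1 alignment or spanning more than 1 gene were dropped, so antisense and overlapping genes and near-identical families are uncertain. All 72 count columns matched a sample by its label.

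From these counts, genes passing edgeR's filterByExpr were scaled by TMM and fitted with edgeR 4.0.16 (quasi-likelihood, Benjamini-Hochberg, adjusted p under 0.05) on the 12 libraries of ZT2, whose 4 groups shared 1 estimate of the spread. GF was compared with SPF in WT and in LKO, and the difference of these effects was tested. The difference between ZT2 and the mean of the other 5 ZT used the 36 WT libraries. The steps were tested on simulated data. Replicates are numbered samples of a group in the labels, and the study's methods describe 3 mice for each group and ZT. Alternatives were DESeq2 1.42.0, RLE size factors, no filter, other libraries in the fit, TMM without the most abundant genes, a replicate block, a log2 threshold of 1 and leaving out each library.

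Named genes were the 15 largest and 15 smallest log2 fold changes among called genes whose groups did not overlap and whose log2 CPM averaged 1 or more, all clock genes, up to 5 called members of each list by p (or, where none was called, the leading ones), genes named in the study's text and the 3 smallest p of each test of a difference. Further names (Sult1e1, Onecut1, Cyp7a1, Srebf2, Ugt1a6a, Ces2a, Cyp3a25, other list members and markers) were chosen after their values were seen. Some members of the lists are counted but not reported by name here. The samples and gene lists were chosen with earlier results of these data known. Positions are those of GENCODE vM21 (GRCm38). Promoters are from RefSeq.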

Additional observations from a re-analysis of the deposited data

Results flagged for a closer look

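Results are given here because a test of a difference between conditions passed (edgeR quasi-likelihood, Benjamini-Hochberg). The effect of GF against SPF differed between genotypes, LKO minus WT, by -2.03 (log2) for Hmgcs1 (adjusted p = 0.0394), -2.48 for Lrtm1 (adjusted p = 0.0394) and -1.94 for Fdps (adjusted p = 0.0434). Hmgcs1 and Fdps act in cholesterol synthesis. In the 12 fits that each left out 1 library Hmgcs1 passed in 5, Lrtm1 in 6 and Fdps in 3, and none of them passed without SPF WT replicate 3, SPF LKO replicate 3, GF WT replicate 2 or 3, or GF LKO replicate 1 or 3. In WT the effect at ZT2 differed from the mean of the other ZT by 1.75 for Grk5 (adjusted p = 0.00214), 2.25 for Loxl4 (adjusted p = 0.00994) and -1.07 for Tef (adjusted p = 0.0152). Of these, Grk5 alone passed without any one of SPF WT replicates 1 and 3 and GF WT replicates 2 and 3, and Loxl4 also did not pass without SPF WT replicate 2.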

How the results depend on the processing

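Of 142 named genes 119 were called, 60 of them in every alternative. Without 1 library the sign of the log2 fold change varied for Clock (-0.20 to 0.11), Cry2 (-0.048 to 0.28) and Per1 (-0.84 to 0.25), none of them called, and for 0 of the called genes; the fit on the 6 libraries alone lost 47 calls, the cause of which was not tested. The WT comparison called 1379 genes, 2088 without a filter, 380 on the 6 libraries alone, 335 at a log2 size of 1, and 480 to 1416 with 1 library left out. The LKO comparison called 1213, 1895 without a filter, 1974 on its 6 libraries alone, 256 at a log2 size of 1, and 342 to 1055 with 1 library left out. The difference between genotypes called 3 genes, 71 with DESeq2, 423 without a filter, and 0 to 20 with 1 library left out; the 12 libraries fitted are already those compared there, so a fit on them alone is the same fit. The difference between ZT called 3 genes, 24 with DESeq2, 241 without a filter, 2 with ZT10, ZT18 and ZT22 as the other ZT, 1 to 6 with 1 library of ZT2 left out, and 7 without SPF WT ZT14 replicate 3 and GF WT ZT6 replicate 3, a choice made after seeing the data.

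Same-numbered GF and SPF WT libraries deviated together weakly (correlations 0.121, 0.284 and 0.022), GF replicate 1 correlated best with SPF replicate 3 (0.238), and nothing in the labels pairs them. With a replicate block 1505 genes were called in WT, 1301 in LKO, 7 in the difference between genotypes and 3 in that between ZT. With 3 livers a group, small differences and genes with few counts could not be resolved.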
